A study of Drosophila sechellia with 6 samples.

Results

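Turandot genes were taken from the expression table of *D. sechellia* by name. Every row of the table whose gene name starts with Tot followed by a capital letter was used, which gave 8 of 17275 entries under 6 gene names: *TotA1* and *TotX2* in 2 rows each, and *TotB*, *TotC*, *TotF* and *TotZ* in 1 row each. The values come from RNA-seq of poly(A) RNA from whole adult females of the strain 14021-0428.25, aged 1 to 4 days by the sample labels. Flies of the OA group spent 24 hr on food with 0.7% octanoic acid (OA), the fatty acid to which the toxicity of *Morinda* fruit is largely due, and flies of the control group spent the same time on control food. Each group had 3 libraries, each made from 10 pooled flies of 1 strain. The comparison asks which genes respond to OA in a species that lives on this fruit.

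Turandot proteins are small secreted proteins of flies, known from *D. melanogaster* as humoral factors that rise in the haemolymph after stress. In that species the fat body makes them after heat, bacterial infection and other insults, and the JAK/STAT pathway, the Imd pathway with its NF-kB factor Relish and MAP kinase signaling through Mekk1 control them. *TotA* is the member studied most, and it has been linked there to survival under heat. The gene names in the table build on those of *D. melanogaster*, with a number added in *TotA1* and *TotX2*. How the rows pair with single genes of that species was not tested. Roles in *D. sechellia* itself are not given in the sources used here.

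The table holds 1 value per gene and group, in FPKM (fragments scaled to transcript length and to the number of mapped fragments), which the authors obtained from the 3 libraries of each group together. There is therefore no replicate check of the differences given here: no SD, SE or p-value could be computed, and whether any of them is larger than the spread between libraries was not tested. Depth per gene is unknown. Each change is a log2 ratio of the OA value to the control value after 1 FPKM was added to both, a scale on which changes of weakly expressed genes look too small. An entry counts as lower or higher when it passes 2-fold on this scale and its mean over the groups is at least 1 FPKM. The flies were homogenized whole, so fewer cells of a type and less RNA per cell cannot be told apart.

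Sex was checked by marker genes. *Yp2*, a yolk protein gene, was at 15455 FPKM in OA and 11392 FPKM in control, and *Vm32E*, a gene of the vitelline membrane of the egg, at 718 FPKM in OA and 984 FPKM in control. These are the 2 of 10 listed female markers that the table names. The paper reports *Cp16*, *Cp18* and *Cp19*, also on that list, as lower in OA. The 2 named genes therefore mark sex only, and egg content was not compared between the groups. Of 10 listed male markers 5 were named, all of them accessory gland genes, with a summed value of 0.438 FPKM in OA and 0.0442 FPKM in control. *Acp26Aa*, *Acp26Ab* and *Acp70A* were listed at 0 in both groups. None of the 6 listed fat body markers carries its name in the table, so the amount of fat body in the 2 groups could not be compared.

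The expressed Turandot genes were lower in the OA group. Summed over the 8 entries, the family stood at 753 FPKM in OA and 1667 FPKM in control, a log2 change of -1.15, which leaves 45.2% of the control value. Its share of the summed FPKM of protein-coding entries was 0.0400% in OA and 0.0876% in control. The family divides into 2 parts by level. The 5 entries of *TotA1*, *TotC* and *TotX2* had at least 10.5 FPKM in either group, and *TotB*, *TotF* and *TotZ* had at most 0.942 FPKM.

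**Figure D1:**
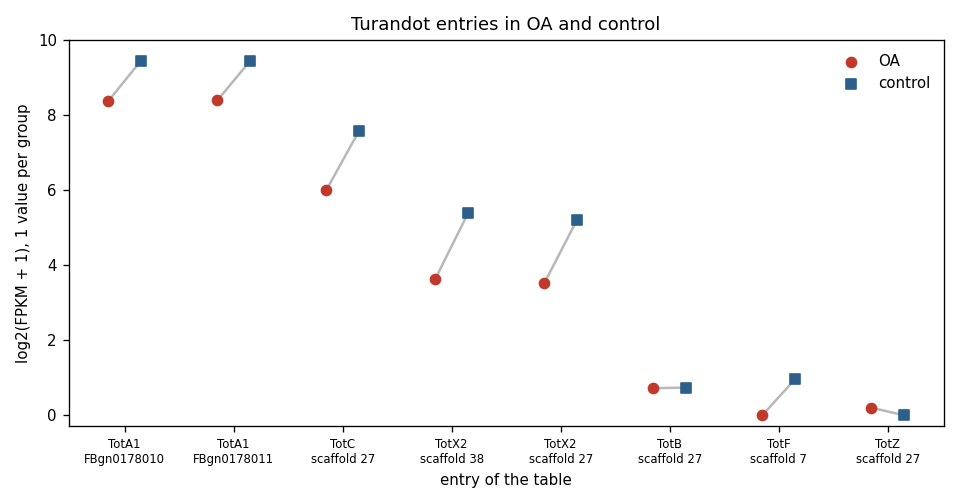
Deposited group value of each Turandot entry on the log2(FPKM + 1) scale, OA as circles and control as squares, 1 value per group and no error bars. The 5 entries of TotA1, TotC and TotX2 lie lower in OA, and the entries of TotB, TotF and TotZ lie under 1 FPKM in both groups.

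*TotA1*, named after the best studied stress factor of the family, made up most of the Turandot signal. Its entry FBgn0178010 (scaffold 27, 40552 to 41027) was at 331 FPKM in OA and 702 FPKM in control, a log2 change of -1.08. The entry FBgn0178011 (scaffold 27, 38435 to 38910) was at 336 FPKM in OA and 696 FPKM in control, a log2 change of -1.05. Both rows span 476 bases, and the higher of the 2 values exceeded the other by a ratio of 1.013 in OA and 1.009 in control. Reads that fit 2 copies of a gene can be split between them, so the values of the single rows are uncertain and their likeness was not tested as a property of the genes. The sum of both rows was 667 FPKM in OA and 1398 FPKM in control, a log2 change of -1.07. Within the family *TotA1* held 88.6% of the FPKM in OA and 83.9% in control. By level its rows ranked 700 and 709 among 16471 protein-coding entries in OA, and 380 and 385 in control.

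*TotC*, a second stress-induced member in *D. melanogaster*, differed more in proportion than *TotA1*. It lies between *TotB* and the *TotA1* rows (FBgn0178012, scaffold 27, 35379 to 35831) and was at 63.1 FPKM in OA and 190 FPKM in control. Its log2 change was -1.58, and OA retained 33.2% of the control value. In rank it stood at 3090 in OA and 1168 in control among protein-coding entries.

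*TotX2* had the lowest level of the expressed members and the largest proportional difference. The row on scaffold 27 (FBgn0178016, 3252 to 3704) was at 10.5 FPKM in OA and 36.01 FPKM in control, a log2 change of -1.69. The row on scaffold 38 (FBgn0170040, 393865 to 399856) was at 11.4 FPKM in OA and 40.8 FPKM in control, a log2 change of -1.75. The second span is 5992 bases long and is printed alike for another entry, GM15053, so it belongs to a merged region rather than to *TotX2* alone. GM15053 was at 2.97 FPKM in OA and 2.90 FPKM in control. The 2 rows of *TotX2* sum to 21.9 FPKM in OA and 76.8 FPKM in control, a log2 change of -1.76. Because the rows share a name, reads may again have been split between them.

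The order of the names by level was the same in both groups, with *TotA1* above *TotC* and *TotC* above *TotX2*, but the distances between them differed. The ratio of summed *TotA1* to *TotC* was 10.6 in OA and 7.35 in control, and that of *TotA1* to *TotX2* was 30.4 in OA and 18.2 in control. The ratio of *TotC* to *TotX2* was 2.88 in OA and 2.48 in control. The OA group thus kept 47.7% of the control value of *TotA1*, 33.2% of that of *TotC* and 28.5% of that of *TotX2*. Among these 3 names, the lower the level of the gene, the smaller the part kept. *TotB*, which is under the minimum of 1 FPKM, went the other way, with 97.4% kept. The 3 names have no replicates, and the differences between them were not tested. In FPKM itself most of the family's difference lay in *TotA1*, with an OA minus control difference of -731 FPKM, against -914 FPKM for the whole family.

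The remaining members were near the lower end of what the table holds. *TotB* (FBgn0178013, scaffold 27, 34423 to 34901) was at 0.648 FPKM in OA and 0.665 FPKM in control, a log2 change of -0.01. *TotZ* (FBgn0178014, scaffold 27, 30659 to 31161) was at 0.148 FPKM in OA and was listed at 0 in control. *TotF* (FBgn0171894) was listed at 0 in OA and was at 0.942 FPKM in control. No fold is given for *TotZ* and *TotF*, since an exact 0 in such a table may stand for an estimate that failed. The summed value of these 3 genes was 0.797 FPKM in OA and 1.61 FPKM in control, and none passed the minimum of 1 FPKM on the mean.

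The position printed for *TotF* (scaffold 7, 3492151 to 3561947) is not that of a single small gene. It covers 69797 bases and is shared by 4 entries, among them *Victoria*, a member of the wider Turandot family in *D. melanogaster* that the name rule does not take. *Victoria* was listed at 0 in OA and was at 0.994 FPKM in control. GM17380, in the same span, was at 1.35 FPKM in OA and 1.37 FPKM in control, and the other entry was listed at 0 in both groups. Of all entries, 1521 share their printed span with another entry.

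All 5 Turandot entries that passed the minimum were at least 2-fold lower in OA, 5 of the 8 members, and 0 were at least 2-fold higher. Over all 12203 entries with a mean of at least 1 FPKM, 4.24% were at least 2-fold lower and 2.58% at least 2-fold higher. Structural RNAs are among the lower entries. Over the 11871 protein-coding entries past the same minimum the share was 2.22% lower and 2.34% higher, and the median log2 change was 0.06. At a mean of at least 10 FPKM, which the 5 Turandot entries also pass, 1.2% of 8769 protein-coding entries were lower and 0.889% higher. The 5 rows carry 3 gene names and may share reads, so they are not 5 separate cases, and the median of their log2 changes was -1.58.

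**Figure D2:**
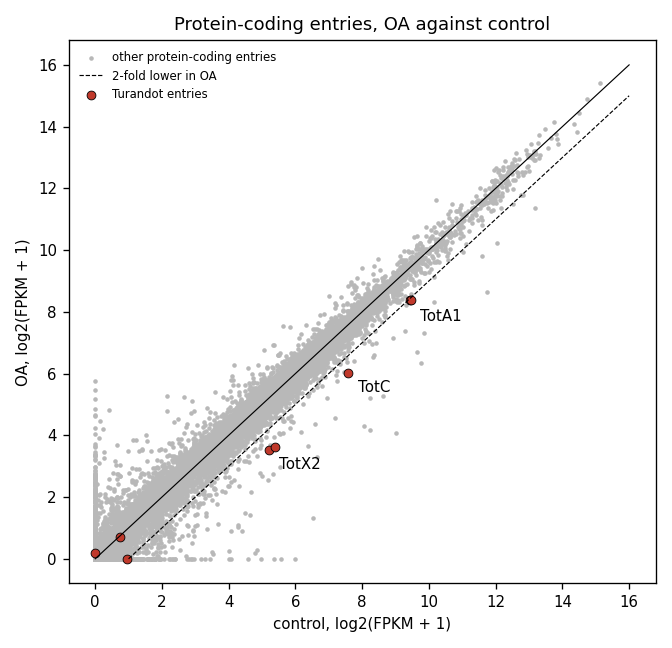
OA against control for the 16471 protein-coding entries, log2(FPKM + 1), 1 deposited value per group. The solid line marks equal values and the dashed line a value 2-fold lower in OA; TotA1, TotC and TotX2 lie below the dashed line, TotA1 close to it.

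Single entries can also be placed by their rank among all changes. Of 8769 protein-coding entries with a mean of at least 10 FPKM, 42 had a log2 change as low as the *TotX2* row on scaffold 38 or lower, that row included. The number was 44 for the *TotX2* row on scaffold 27 and 48, or 0.547%, for *TotC*. For the *TotA1* rows it was 89 and 94, or 1.01% and 1.07%. *TotX2* and *TotC* therefore sat well within the lower tail, and *TotA1* sat near the 2-fold limit. With equal total FPKM set in the 2 groups, which moved changes by 0.15 on the log2 scale, the *TotA1* rows came to -0.93 and -0.90 and no longer passed 2-fold.

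**Figure D3:**
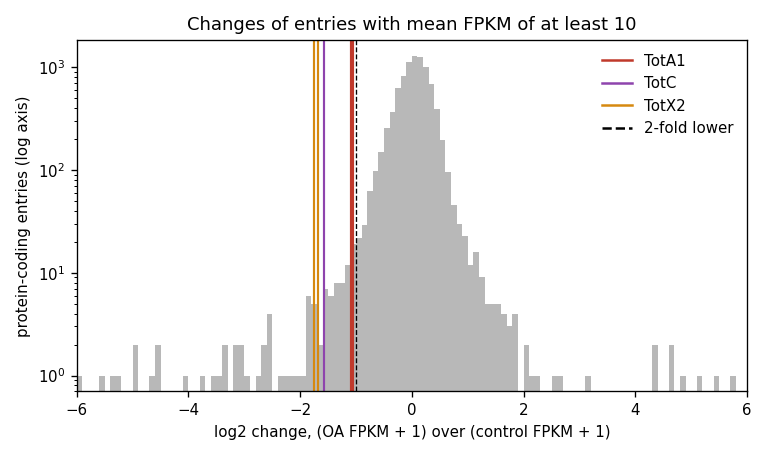
Number of protein-coding entries (log axis) by log2 change for the 8769 entries with a mean of at least 10 FPKM, in bins of 0.1. Lines mark the Turandot rows: TotX2 at -1.75 and -1.69, TotC at -1.58, and TotA1 at -1.08 and -1.05, just past the dashed 2-fold line.

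Most of the family lies in 1 cluster. Scaffold 27 holds 6 of the 8 entries, in the order *TotX2*, *TotZ*, *TotB*, *TotC*, *TotA1* and *TotA1*, over 37776 bases. The last 5 of these lie within 10369 bases. Only 477 bases separate *TotB* from *TotC*, yet *TotB* was under 1 FPKM in both groups and *TotC* was the third most abundant row of the family. The *TotA1* rows are 1641 bases apart, and *TotX2* lies 26954 bases from *TotZ*. Along the cluster the weakly expressed *TotZ* and *TotB* stand between the expressed *TotX2* and *TotC*.

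Genes around the cluster were also compared. Of the 10 other entries within 20000 bases of a Turandot entry on scaffold 27, 4 had a mean of at least 1 FPKM, and their log2 changes lay between -0.08 and 0.32. GM23141, the most abundant of these, was at 5980 FPKM in OA and 6340 FPKM in control, 15808 bases from the nearest *TotA1* row. Along the whole scaffold, 71 protein-coding entries other than Turandot genes passed the minimum, with changes between -0.85 and 1.34 and a median of 0.16, and 0 of them were at least 2-fold lower and 2 at least 2-fold higher. At the shares of 2.22% lower and 2.34% higher among protein-coding entries, few of either would be counted among 71. Over all 3 scaffolds, 18 of the 27 entries within 20000 bases of a printed Turandot span passed the minimum and 0 were at least 2-fold lower. On scaffolds 7 and 38 these spans are merged regions of 69797 and 5992 bases. How far the entries there lie from *TotF* and *TotX2* themselves is therefore not known. One entry near the printed span of *TotF*, GM16977, was at 8.29 FPKM in OA and listed at 0 in control, so no fold is given for it. It was named after its values were seen.

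**Figure D4:**
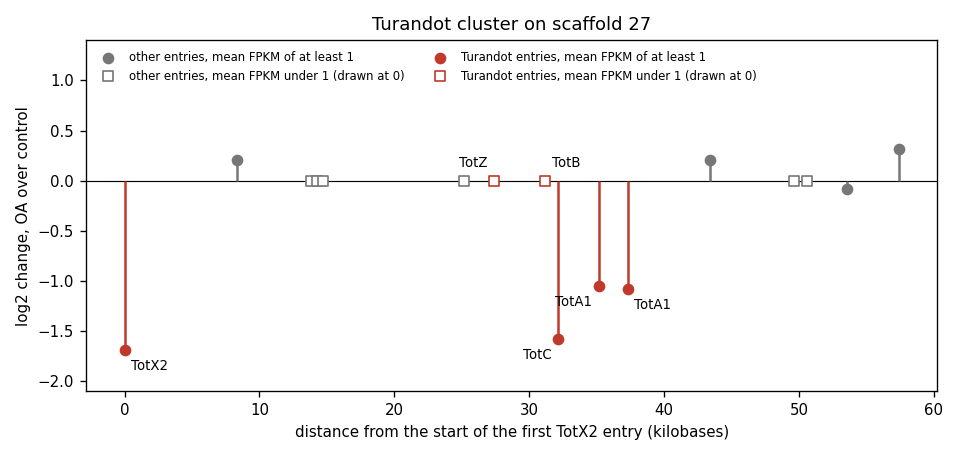
Log2 change (OA over control) of the entries of scaffold 27 within 20000 bases of a Turandot entry, by distance from the start of the first TotX2 entry in kilobases. Open squares are entries with a mean under 1 FPKM, drawn at 0 without a value; the Turandot entries TotX2, TotC and TotA1 lie between -1.69 and -1.05 and the other measured entries between -0.08 and 0.32.

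Few genes of the listed immune and stress pathways could be followed, and only by RNA level. The activity of these pathways was not tested. The table names 0 of 11 listed genes of the JAK/STAT pathway, 0 of 17 of the Toll pathway and 1 of 18 of the Imd pathway. The last is *Rel*, which encodes Relish, at 48.8 FPKM in OA and 52.6 FPKM in control, a log2 change of -0.11. From the MAP kinase stress list 1 of 16 genes is named, *kay*, the fly Fos gene, at 81.8 FPKM in OA and 69.6 FPKM in control. Neither *Rel* nor *kay* passed 2-fold. Protein-coding entries past the minimum seldom do, with 2.22% lower and 2.34% higher, so this says little about these genes. The other genes of these lists may be in the table under GM numbers that the files do not pair with names.

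Among other immune effectors, the antimicrobial cecropins were lower in OA as the Turandot genes were. The table names 3 of 30 listed antimicrobial peptide genes, all of them cecropins, and the 2 that were above 0 in both groups passed 2-fold. *CecC* was at 83.1 FPKM in OA and 214 FPKM in control, a log2 change of -1.36, and *CecA1* was at 80.3 FPKM in OA and 872 FPKM in control, a log2 change of -3.43. *CecB* was listed at 0 in OA and was at 22.8 FPKM in control, so no fold is given for it. Beyond the cecropins, the paper reports *AttA*, *AttC*, *Def* and *edin* as lower in OA. It also reports that immune and defense terms were enriched among its lower genes. Of 7 listed thioester protein genes, which encode complement-like factors, 5 are named and 4 passed the minimum. Their changes lay between -0.05 and 0.18, with *Tep4* at 139 FPKM in OA and 123 FPKM in control. None of these 4 passed 2-fold. Among protein-coding entries past the minimum 2.22% were lower and 2.34% higher, so few or none of any 4 would be counted.

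Heat shock and oxidative stress genes mark other branches of the stress response. Of 23 listed heat shock genes, 3 are named: *Hsp83*, a chaperone of the Hsp90 class, was at 1109 FPKM in OA and 1068 FPKM in control, *DnaJ-1* at 137 FPKM in OA and 104 FPKM in control, and *Hsp68* at 5.25 FPKM in OA and 7.42 FPKM in control. Their log2 changes were 0.05, 0.41 and -0.43. Of 17 listed genes of oxidative stress defence 5 are named and 4 passed the minimum, with changes between -0.24 and 0.01. *Sod*, the superoxide dismutase gene, was at 1464 FPKM in OA and 1657 FPKM in control, and *GstD1*, a glutathione transferase gene, at 1109 FPKM in OA and 1306 FPKM in control. None of the 7 passed 2-fold. At the shares of 2.22% lower and 2.34% higher among protein-coding entries, few or none of any 7 would be counted. *TrxT* stayed under the minimum. None of the 10 listed housekeeping genes is named in the table.

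**Figure D5:**
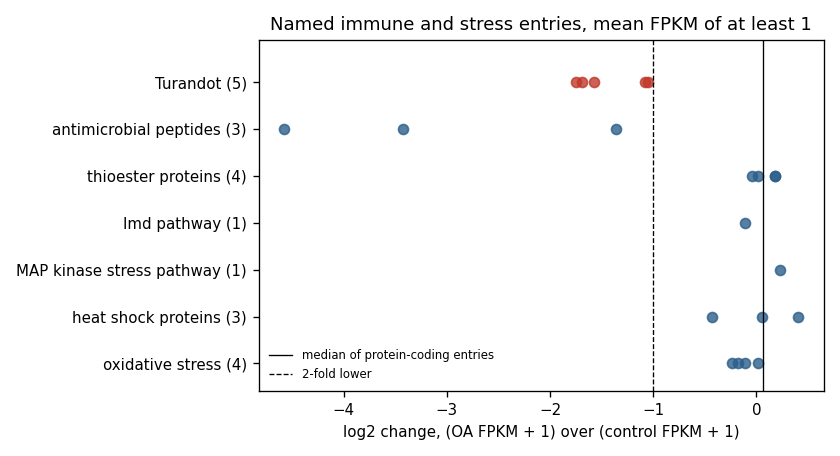
Log2 change of each named entry with a mean of at least 1 FPKM, for the Turandot entries and 6 lists of immune and stress genes, with the number of entries in brackets. Points stand for single entries; the Turandot entries and the 3 cecropins lie left of the dashed 2-fold line, the leftmost being CecB, listed at 0 in OA and placed only by the 1 FPKM added to both groups, and the other lists lie around the solid line, the median of protein-coding entries at 0.06.

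Named genes with the most similar pair of values were sought by the distance between group values on the log2(FPKM + 1) scale, over the 2 groups only. Among 372 named protein-coding entries, *CecC* was nearest to *TotC*, at a distance of 0.43, followed by *Mal-A7* at 0.72 and *Obp19c* at 0.88. *Mal-A7*, a maltase gene, was at 66.3 FPKM in OA and 116 FPKM in control. *Obp99b*, an odorant binding protein gene, was nearest to the summed *TotA1*, at a distance of 0.42, with 890 FPKM in OA and 1477 FPKM in control. *Vm32E* followed at 0.52 and *Trx-2* at 0.72. Nothing named lay closer than 0.85 to the summed *TotX2*. The nearest there were *Mal-A4*, *cav* and *Amy-p*, each with a smaller change than *TotX2*, between -0.57 and -0.44. With only 2 values per gene, this likeness describes level as much as change.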

How the data were processed

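RNA was extracted from whole adult females, selected for poly(A) and sequenced as single-end reads, 3 libraries per group. The authors checked reads with FastQC, aligned them with Bowtie2 to Ensembl's *D. sechellia* genome (GCA_000005215.1), and quantified genes in Galaxy by Cuffdiff, using geometric normalization and correcting for length and bias. How Cuffdiff shared out reads that fit several copies, and whether strand was used, is not given in the sources used here. The deposited FPKM values are 1 per gene and group. The file also holds the authors' own fold changes, test statistics, p-values, q-values and calls, which were not used. Depth per library was not computed, because bias-corrected FPKM values hold no read counts. The paper lists total and mapped reads for each library, and these were not used here. In that list an OA library has the lowest mapped share and a control library the highest. Whether this affects the comparison was not tested.

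Groups were assigned from the sample titles. Changes were computed with a pseudocount of 1 FPKM, and entries were counted past 2-fold at a mean of at least 1 FPKM. Because the values are group values, no test planned for values per library was run. Structural RNAs were recognised by name. Start positions in the file count from 0: of 5796 GM entries under 1000 bases, 66.4% have spans divisible into whole codons if read so, and 17.2% otherwise. They are printed counted from 1. The reference table of gene names, made for another assembly, matched 0 of 17275 identifiers, and sequences were not used here. Genes named by rule are the Turandot entries, neighbours within 20000 bases of their printed spans, listed pathway genes and the 3 named entries nearest in value. GM16977 and the metallothioneins were chosen after their values were seen. At most 2 unpaired GM identifiers are printed for each direction. The members and lists were chosen with earlier results of these data known. Other pseudocounts, scalings, fold limits and filters were tried. The fold step was checked for its arithmetic only, on control values multiplied by known factors without noise. Python 3.11.15, NumPy 2.4.6, pandas 2.3.3 and Matplotlib 3.10.9 were used.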

Additional observations from a re-analysis of the deposited data

How the results depend on the processing

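Under the 5 other pseudocounts and scalings, all 45 recomputed changes of *TotA1*, *TotC*, *TotX2* and the family sum stayed below 0. Their sign could not have turned. A pseudocount cannot reverse a change, and the scalings moved changes by at most 0.15 on the log2 scale. The 45 values also overlap, since rows and their sums are both counted. The summed changes lay between -1.13 and -0.92 for *TotA1*, -1.64 and -1.43 for *TotC*, -1.83 and -1.60 for *TotX2* and -1.21 and -0.998 for the family. Rescaling to the same total FPKM gave the upper end for *TotA1* and the family, short of 2-fold, and left 3 of the 5 Turandot entries past it. Of all entries, 471 were then at least 2-fold lower, against 518 before. The total is 90.3% of control in OA with structural RNAs and 98.8% over protein-coding entries alone. With a limit of 3-fold, 2 of the 5 entries passed, beside 357 of the 12203 entries past the minimum. These 2 are the rows of *TotX2*, which share a name and may share reads. With repeated names summed, the 5 rows became 3 names, and all 3 passed 2-fold, beside 384 of all names. The number of names past the minimum is not given, so the 384 have no share.

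Over all entries, the 518 lower became 922 at 1.5-fold and 357 at 3-fold. They became 370 with a pseudocount of 5, 355 at a mean of at least 10 FPKM and 384 with repeated names summed. The 315 higher became 746 at 1.5-fold, 188 at 3-fold, 148 with a pseudocount of 5, 111 at a mean of at least 10 FPKM and 198 among entries above 0 in both groups. No paired analysis was possible because libraries were merged into group values before deposit, and for the same reason no library could be left out.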

Other observations

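Scaffold 27 also carries 3 of the 4 metallothionein genes the table names, which encode small proteins that bind metals. These 3 lie between 374770 and 552293, well outside the Turandot cluster at 3252 to 41027. They were chosen after their values were seen. *MtnB* was at 2961 FPKM in OA and 3859 FPKM in control, *MtnC* at 4432 FPKM in OA and 4590 FPKM in control, and *MtnD* at 234 FPKM in OA and 163 FPKM in control. Their log2 changes were -0.38, -0.05 and 0.52, and that of *MtnA*, the other named gene, on scaffold 0, was -0.35. None passed 2-fold in either direction. Most protein-coding entries did not either, with 2.22% lower and 2.34% higher.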
